A study of Mus musculus with 2 samples.

Results

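Bidirectional promoters are stretches of DNA between or across the start sites of a pair of genes that are transcribed away from each other. In the STARR-seq list of activated mouse CD4 T cells, 320 of 10531 listed elements (3.04%) were counted as such promoters of protein-coding genes. They were counted by distance alone, and 25 of them covered neither start site. The rule asked for a midpoint at most 1000 bp from a plus-strand and from a minus-strand transcription start site (TSS) of 2 different protein-coding genes in GENCODE M21 basic transcripts. They made up 6.43% of the 4974 listed elements near a protein-coding TSS, and the other 4654, near start sites of 1 strand only, are called one-direction promoter elements here. The 320 elements held 308 gene pairs and 622 genes, with 3 genes at 9 elements and 2 at the other 311, and they lay on 20 chromosomes, with the largest number, 31, on chromosome 11.

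STARR-seq (self-transcribing active regulatory region sequencing) places DNA fragments in the transcribed part of a reporter plasmid, so that the RNA a fragment gives can be set against its amount in the plasmid pool. The cells were primary naive CD4-positive alpha-beta T cells of strain C57BL/6NJ, activated in culture for 3 days with anti-CD3e (0.25 µg/mL), anti-CD28 (1 µg/mL), anti-interferon-gamma (2 µg/mL), interleukin-2 (10 ng/mL) and anti-interleukin-4. The plasmids were carried as episomes after transient transfection, so the promoters were read outside their chromosomal setting. There was 1 group with 2 biological replicates, separate biosamples of 1 donor record. Sex was not collected and age was unknown, per the labels. Both replicates carried the same treatments, although each label gives only some of the doses. No expression values were used here, so the cell type could not be checked against its markers.

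The authors deposited 1 effect, p-value and adjusted p-value per element for both replicates together, so no value per replicate could be shown, the sequencing depth is unknown, and no interval below covers the spread between replicates. The sources used here state no log base and no sign convention for the effect. Effects are taken as log2, and an effect above 0, called positive, is likely more reporter RNA than the plasmid pool predicts. All listed elements had an adjusted p of at most 0.01, and they were 9.18% of the 114722 tests that the adjustment implies. Tested regions outside the list are not analysed here. Intervals are 95%, exact binomial for shares and order-statistic for medians, and each element counts once, with no replication of the experiment behind it.

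Head-to-head gene pairs are common in mammalian genomes. Their shared promoters are usually rich in CG dinucleotides, poor in TATA boxes and rich in sites for ETS factors such as GABPA, for NRF1, SP and KLF factors, NFY and YY1. They are known for serving housekeeping genes of mitochondria, DNA repair, the cell cycle and chaperones, and replication-dependent histone genes, while a smaller set serves inducible genes such as those of the interferon response.

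The stretches between the TSSs of the pairs the results turn on are shown first, on the plus strand of GRCm38 (mm10), outside the exons of GENCODE M21 and of curated RefSeq transcripts. Each pair is named as minus-strand gene, then plus-strand gene. Capitals mark matches to the motifs searched, on either strand. Interferon-stimulated response elements (ISRE, paired GAAA blocks that IRF and STAT factors bind), AP-1 (TGACTCA) and NFY (AGCCAAT or AACCAAT) are capitalised in the first set, which holds an interferon-induced pair, an MHC pair and both 9930111J21Rik pairs. For the latter the stretch is the listed element itself, and 9930111J21Rik1/Olfr56 holds an AP-1 match but no ISRE match. This shorter element begins at the last letters of the place where the longer one has its ISRE match.
Ifit1bl2/Ifit1 (chr19:34640744-34640870): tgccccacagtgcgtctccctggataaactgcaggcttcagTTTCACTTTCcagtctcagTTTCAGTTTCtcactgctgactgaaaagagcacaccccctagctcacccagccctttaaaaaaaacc
H2-T22/Gm6034 (chr17:36042748-36042960): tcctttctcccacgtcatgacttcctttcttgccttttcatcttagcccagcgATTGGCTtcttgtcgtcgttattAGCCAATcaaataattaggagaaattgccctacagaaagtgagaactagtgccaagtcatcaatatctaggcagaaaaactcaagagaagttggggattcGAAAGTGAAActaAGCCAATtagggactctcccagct
9930111J21Rik2/Olfr56 (chr11:49051576-49051800): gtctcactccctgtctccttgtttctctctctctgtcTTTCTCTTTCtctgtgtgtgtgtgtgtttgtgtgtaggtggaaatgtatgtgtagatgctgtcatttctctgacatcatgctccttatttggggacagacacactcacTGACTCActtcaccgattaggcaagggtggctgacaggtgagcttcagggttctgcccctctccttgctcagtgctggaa
9930111J21Rik1/Olfr56 (chr11:48979776-48979900): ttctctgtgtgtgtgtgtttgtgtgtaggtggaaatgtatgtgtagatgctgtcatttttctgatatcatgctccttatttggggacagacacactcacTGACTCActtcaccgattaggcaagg

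The second set holds pairs of stress genes and of zinc finger genes among the 10 largest effects. For Hspa1a/Hspa1l, the 300 bases next to the Hspa1a TSS are given of 546 between the TSSs, with the paired heat shock unit (GAANNTTC or TTCNNGAA, a search added after the data were seen) in capitals. In the others the capitals mark a cAMP response element (CRE, TGACGTCA) or an E-box (CACGTG).
Hspa1a/Hspa1l (chr17:34972157-34972456): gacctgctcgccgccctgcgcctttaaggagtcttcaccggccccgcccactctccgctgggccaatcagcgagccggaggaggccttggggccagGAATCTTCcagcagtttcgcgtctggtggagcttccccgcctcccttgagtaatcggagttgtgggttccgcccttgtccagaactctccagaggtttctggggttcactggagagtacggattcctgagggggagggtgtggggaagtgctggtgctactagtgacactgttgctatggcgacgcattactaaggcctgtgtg
Ppp1r15a/Plekha4 (chr7:45526269-45526329): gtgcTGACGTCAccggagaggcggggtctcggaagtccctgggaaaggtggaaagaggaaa
Zfp944/Zfp758 (chr17:22361401-22361452): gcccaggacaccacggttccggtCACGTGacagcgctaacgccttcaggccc
Zfp942/Zfp943 (chr17:21962465-21962551): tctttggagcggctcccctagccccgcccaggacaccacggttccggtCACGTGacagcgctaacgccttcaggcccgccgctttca

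The third set holds both histone pairs, with NFY matches, the box of the letters TATAAA and heat shock units in capitals.
Hist1h2ac/Hist1h2bc (chr13:23683960-23684198): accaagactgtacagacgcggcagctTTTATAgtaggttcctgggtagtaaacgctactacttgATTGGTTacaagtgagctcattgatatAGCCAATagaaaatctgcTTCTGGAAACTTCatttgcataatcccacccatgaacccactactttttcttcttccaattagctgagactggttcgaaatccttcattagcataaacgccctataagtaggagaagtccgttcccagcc
Hist1h2an/Hist1h2bp (chr13:21787249-21787460): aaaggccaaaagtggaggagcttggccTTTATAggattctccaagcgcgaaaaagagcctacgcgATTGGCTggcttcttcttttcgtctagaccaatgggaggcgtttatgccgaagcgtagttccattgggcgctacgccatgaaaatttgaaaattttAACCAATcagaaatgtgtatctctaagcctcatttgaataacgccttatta

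The last set holds negative members, 3 of the 10 most negative and 3 at mitochondrial genes, with E-box, SP and KLF (GGGGCGGGG), ETS (CCGGAAG), NFY and half-open NRF1 matches in capitals. The stretch at Thoc7/Atxn7 held no match to any motif searched.
Rhno1/Foxm1 (chr6:128362912-128362966): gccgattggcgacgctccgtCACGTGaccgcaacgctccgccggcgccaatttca
Rfng/Gps1 (chr11:120784208-120784269): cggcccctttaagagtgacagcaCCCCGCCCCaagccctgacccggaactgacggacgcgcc
Thoc7/Atxn7 (chr14:13961314-13961439): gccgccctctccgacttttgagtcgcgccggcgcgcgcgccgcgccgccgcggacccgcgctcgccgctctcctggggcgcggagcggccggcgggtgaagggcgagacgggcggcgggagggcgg
Timm23/Parg (chr14:32201899-32201948): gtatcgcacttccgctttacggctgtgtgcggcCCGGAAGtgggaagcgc
Mrpl43/Twnk (chr19:45006443-45006557): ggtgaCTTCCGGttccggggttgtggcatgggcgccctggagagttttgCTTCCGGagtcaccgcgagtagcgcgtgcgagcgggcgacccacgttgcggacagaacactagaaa
Atp5h/Kctd2 (chr11:115419963-115420125): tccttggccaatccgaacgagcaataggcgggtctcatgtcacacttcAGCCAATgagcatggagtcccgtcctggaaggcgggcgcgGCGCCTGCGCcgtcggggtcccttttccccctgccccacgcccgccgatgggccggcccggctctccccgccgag

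Most bidirectional promoter elements had a negative effect. Positive effects were listed for 69 of 320 (21.6%, 17.2 to 26.5) and negative effects for 251. The share of positive elements was 51.3% over all listed elements on placed chromosomes and 15.2% over one-direction promoter elements (707 of 4654, interval 14.2 to 16.3). The intervals of bidirectional and one-direction elements did not overlap. One-direction elements with a noncoding TSS on the opposite strand were positive in 15.4% (12.7 to 18.3, 104 of 676), and those with none in 15.2% (603 of 3978).

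Members had smaller effects than one-direction elements, more clearly so on the negative side. The median was 1.01 (0.96 to 1.17) over positive members and -1.29 (-1.35 to -1.25) over negative members, against 1.19 (1.15 to 1.27) and -1.49 (-1.51 to -1.47) in one-direction elements. The intervals of the positive medians overlapped and those of the negative medians did not. Effects of 2 or more in size were found in 32 members (10.0%), 8 positive and 24 negative, while 22.7% of one-direction elements (1055) reached it. Members ranged from -3.36 to 3.95 and one-direction elements from -7.55 to 7.13. Closest to 0 were Supt6/Sdf2 at 0.59, a histone chaperone gene with an endoplasmic reticulum gene, and Cenpx/Lrrc45 at -0.65, a kinetochore gene with a centrosome gene.

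Base composition separated the signs among members. The median GC content was 59.1% in positive and 66.8% in negative members, and 65.7% over all members against 67.2% in one-direction elements. Positive members held a median of 66.7 CG dinucleotides per kb, and negative members 93.0. Below 60% GC, 40 of 51 members were positive (78.4%), and at 60% or more 29 of 269 were (10.8%). One-direction elements gave 69.6% (470 of 675) and 5.96% (237 of 3979). Both kinds of promoter thus passed from mostly positive to mostly negative over the same GC range.

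**Figure D1:**
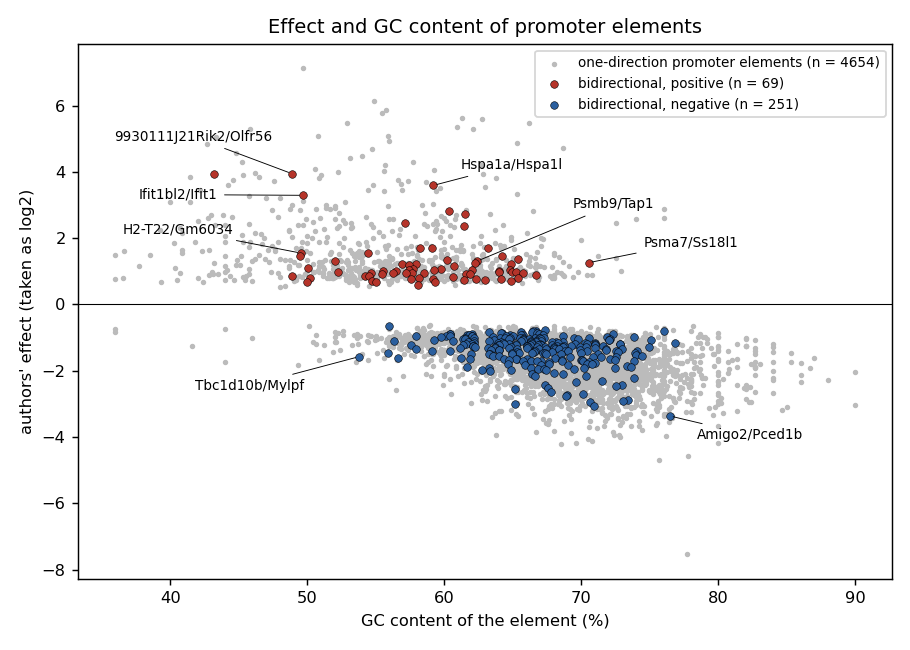
The authors' effect (vertical axis, taken as log2) against GC content (horizontal axis, percent) for 69 positive and 251 negative bidirectional promoter elements, over 4654 one-direction promoter elements in grey; each point is 1 element. Positive members lie mostly below 65% GC, with Psma7/Ss18l1 the exception above 70%, and no member is as extreme as the outermost grey points.

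Within bins of GC content, members were more often positive than one-direction elements in the middle of the range, with wide intervals. From 55 to 60% GC, 24 of 34 members were positive (70.6%, 52.5 to 84.9) against 184 of 352 one-direction elements (52.3%, 46.9 to 57.6). From 60 to 65%, 23 of 92 members were positive (interval 16.6 to 35.1%) against 167 of 956 (17.5%, 15.1 to 20.03). From 65 to 70% the shares were 4.27% (5 of 117) and 3.57% (60 of 1679). The intervals overlapped in each bin. Weighted to the GC bins of the members, one-direction elements were positive in 16.7%, which left 4.83 percentage points to the members' 21.6%. With GC content taken over the central 200 bp, that difference was 2.51 points.

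**Figure D2:**
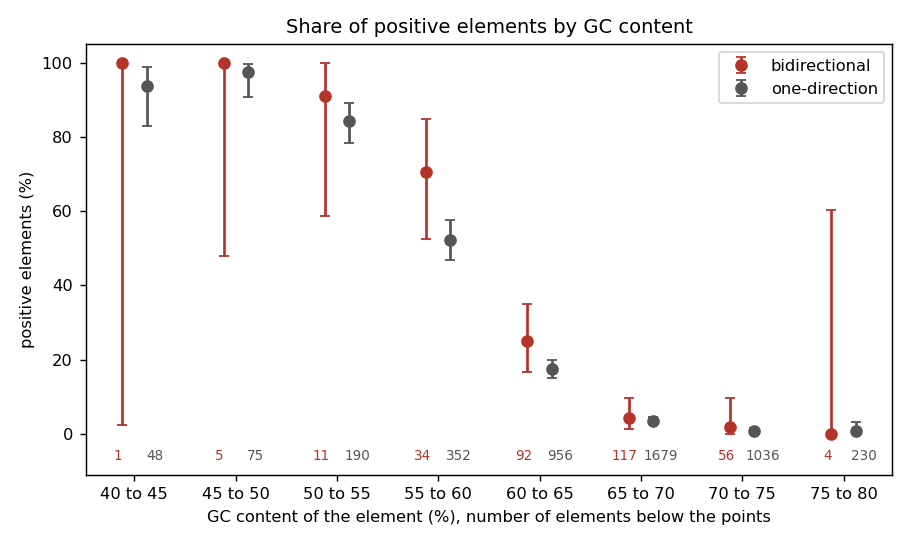
Share of positive elements (vertical axis, percent, with exact 95% intervals) in bins of 5 percentage points of GC content (horizontal axis) for bidirectional and one-direction promoter elements; the numbers under the points are elements per bin. The shares fall from above 80% below 55% GC to under 5% from 65% GC up, and the intervals of both kinds overlap in each bin.

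Members against this trend were few, and they are named here after their values were seen. At 65% GC or more, 6 of 177 were positive. These were Ndufa13/Tssk6 (1.37), Psma7/Ss18l1 (1.26, at 70.5% GC), Ankrd37/Lrp2bp (0.97), Spata2/Rnf114 (0.93), Hnrnph3/Pbld2 (0.90) and Mrpl48/Rab6a (0.79). Ndufa13 encodes a subunit of respiratory complex I, and Psma7 an alpha subunit of the 20S proteasome. Below 60% GC, 11 members were negative, and the one with the lowest GC content was Tbc1d10b/Mylpf, with -1.58 at 53.8%. Tbc1d10b encodes a Rab GTPase-activating protein and Mylpf a light chain of fast muscle myosin.

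From 60% GC up, negative members were less negative than one-direction elements of like GC content. The medians were -1.29 and -1.49 from 65 to 70% GC, and -1.53 and -1.77 from 70 to 75%. From 60 to 65% they were -1.18 and -1.23. From 55 to 60% the order was the opposite, at -1.17 (10 members) and -1.11 (168 elements). Weighted over GC bins, the medians were -1.31 and -1.47. Members were also wider, with a median of 950 bp against 800 bp, so medians were also set side by side in classes of both. From 65 to 70% GC, the medians were -1.35 (-1.69 to -1.25, 27 members) and -1.79 (-1.89 to -1.73, 234 elements) at 1200 bp or more, and -1.27 (-1.44 to -1.21, 72) and -1.45 (-1.50 to -1.42, 763) from 800 to below 1200 bp. From 70 to 75% GC and 800 to below 1200 bp they were -1.43 (-1.70 to -1.28, 26) and -1.85 (-1.93 to -1.78, 382). From 60 to 65% GC and 800 to below 1200 bp the intervals overlapped, at -1.18 (-1.27 to -1.04, 44) and -1.22 (-1.26 to -1.17, 398).

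**Figure D3:**
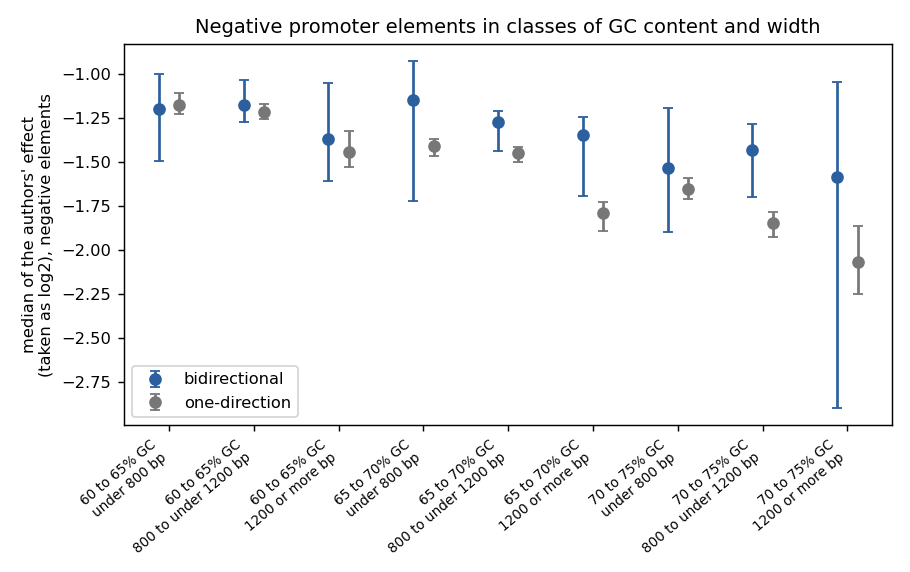
Median effect (vertical axis, taken as log2) of negative promoter elements in 9 classes of GC content and element width (horizontal axis), for bidirectional and one-direction elements, with order-statistic 95% intervals. Bidirectional medians lie nearer to 0 in 8 of the 9 classes, with intervals that stay apart from 65 to 70% GC at 1200 bp or more and from 70 to 75% GC at 800 to below 1200 bp.

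The arrangement of the start sites was varied. The TSSs pointed away from each other with a gap between them (divergent) at 245 members, of which 51 were positive (20.8%, 15.9 to 26.4). The transcripts overlapped at their 5′ ends at 75 members, of which 18 were positive (24.0%, 14.9 to 35.3). The median divergent gap was 133 bp (quartiles 73 and 259, range 1 to 1112), and 201 of the 245 (82.0%) were 300 bp or shorter. The overlap had a median of 259 bp and a range of 1 to 1321. Element midpoints lay a median of 135 bp from the centre of the pair. The share of positive elements showed no order with the gap: 24 of 92 up to 100 bp, 12 of 69 up to 200 bp, 8 of 40 up to 300 bp, 2 of 20 up to 500 bp and 5 of 24 above.

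The element covered both TSSs at 259 members, 53 of them positive (20.5%). It covered 1 TSS at 36 members, 8 of them positive (22.2%), and none at 25 members, 8 of them positive (32.0%, 14.9 to 53.5). Nearest inside the 1000 bp limit, by the distance from the midpoint to the farther TSS, were F930015N05Rik/Hs3st3a1 at 965 bp (-1.19), both 9930111J21Rik pairs at 955 and 949 bp (3.95 each) and Ddx25/Pus3 at 947 bp (-1.93). Nearest outside were Fhod1/Slc9a5 at 1005 bp (-0.94) and Sgsm2/Tsr1 at 1015 bp (0.92).

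The annotation held 1323 pairs of protein-coding genes on opposite strands with TSSs at most 2000 bp apart, and 316 of them (23.9%, 21.6 to 26.3) had a listed element. The share was 22.6% for divergent pairs (241 of 1068) and 29.4% for overlapping pairs (75 of 255). Among divergent pairs it was 24.9% up to 100 bp, 26.5% to 200 bp, 30.6% to 300 bp, 23.3% to 500 bp and 22.1% to 1000 bp, while 1 of 133 pairs above that had one. A midpoint must lie within 1000 bp of both TSSs, so the room for such an element shrinks as the gap passes 1000 bp, and the low count there is largely set by the rule. Listed elements near only 1 TSS of those pairs are among the one-direction elements. An element near 3 genes was counted for each of its pairs. Which of the other pairs were tested was not known from the list.

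The largest positive effects included interferon, stress and zinc finger genes. The 2 highest, both 3.95 (deposited adjusted p 0.0091 and 3.3e-07), were 9930111J21Rik1/Olfr56 and 9930111J21Rik2/Olfr56 on chromosome 11. Each is near-identical to another place in the genome, and the shorter element matches part of the longer almost base for base, as printed above. These 2 effects are therefore not separate cases. The elements hold 25.6% and 41.3% of repeat-masked bases, and reads could be split or shared between copies. In all, 4 members had another copy in the genome, and all 4 were positive. Besides these they were Mfsd8/Abhd18 (1.46) and 2700097O09Rik/Srp54a (1.24). Olfr56 is an olfactory receptor gene, and the elements near it covered neither TSS. Hspa1a/Hspa1l followed at 3.59 (adjusted p 3.1e-08, 59.2% GC), a pair of HSP70 chaperone genes of which Hspa1a is the stress-inducible form. Ifit1bl2/Ifit1 had 3.29 and the smallest adjusted p of all members, 1.2e-12, at 49.7% GC. Ifit1 encodes an interferon-induced antiviral protein that binds foreign RNA.

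Rbks/Babam2 had 2.81 (adjusted p 1.4e-10). Rbks encodes ribokinase and Babam2 a subunit of the BRCA1-A deubiquitinase complex. The zinc finger pairs Zfp944/Zfp758 and Zfp942/Zfp943 had 2.72 and 2.38 (adjusted p 3.1e-06 and 0.00047). Their sequences above share a stretch: the 52 bases between the TSSs of Zfp944/Zfp758 are found whole in the 87 bases at Zfp942/Zfp943, E-box included. At the criteria for copies neither element had another copy. Nrg4/Tmem266, with the gene of an ErbB4 ligand, had 2.46 (adjusted p 1.1e-10) in an element that covered neither TSS. Stk19/Dxo and Ppp1r15a/Plekha4 had 1.70 and 1.69; Dxo removes faulty RNA caps, and Ppp1r15a (GADD34) directs a phosphatase to eIF2α in the stress response. The CRE printed above lies between the start sites of this last pair. H2-T22/Gm6034, at a nonclassical MHC class I gene, had 1.55 and the fifth smallest adjusted p among positive members, 2.9e-07.

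The most negative effects lay at GC-rich pairs with other functions. Amigo2/Pced1b, with an adhesion protein gene, had -3.36 at 76.4% GC and adjusted p 2.8e-07. Strn3/Ap4s1, a striatin gene with a subunit of the AP-4 adaptor complex, had -3.06 and the smallest adjusted p among negative members, 5.1e-08. Thoc7/Atxn7, of an mRNA export complex and the SAGA coactivator, had -2.99, and Rhno1/Foxm1, of the DNA damage checkpoint and cell cycle transcription, had -2.95. Fam83h/K230010J24Rik had -2.91 and Rfng/Gps1 -2.90; Rfng modifies Notch receptors and Gps1 is a COP9 signalosome subunit. Bag5/Apopt1 (-2.76), Bend6/Dst (-2.73), Inca1/Kif1c (-2.71) and Lrrc75a/Mmgt2 (-2.64) completed the 10. Drap1/AI837181, with a corepressor of RNA polymerase II transcription, had -2.55 and adjusted p 9.1e-08. GC content ran from 65.1 to 76.4% in these 10 and from 43.2 to 63.2% in the 10 largest. SP and KLF matches were held by 7 of the 10 most negative and 1 of the 10 largest, and ISRE matches by 0 and 3.

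**Figure D4:**
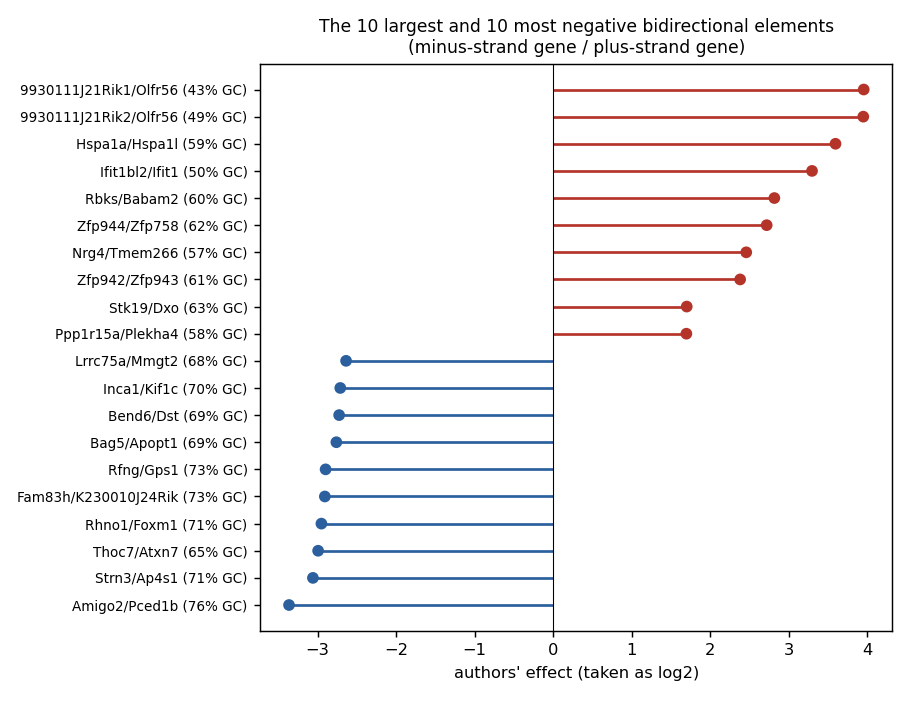
The authors' effect (horizontal axis, taken as log2) of the 10 highest and the 10 lowest bidirectional promoter elements, 1 line per element, with GC content beside each pair's name. Effects up to 3.95 stand at 43 to 63% GC and those down to -3.36 at 65 to 76% GC.

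By function, mitochondrial genes were the largest group. A gene of mitochondrial translation, protein import or the respiratory chain was in 16 members, 7 positive and 9 negative, with a median effect of -1.01 and a median GC content of 64.4%. One-direction elements of the same list were positive in 7 of 17, with a median of -0.83. Positive members included the complex I subunit genes at Ndufa13/Tssk6 (1.37), Ndufb11/Rbm10 (1.23) and Ndufa1/Rnf113a1 (1.07), ribosomal protein genes at Mitd1/Mrpl30 (1.32) and Mrpl48/Rab6a (0.79), and the ATP synthase gene at Atp5j/Gabpa (0.72). Gabpa itself encodes the ETS subunit that binds CCGGAAG sites. Negative were Atp5h/Kctd2 (-1.72), the import genes at Timm23/Parg (-1.57) and Timm9/2700049A03Rik (-1.48), Gga3/Mrps7 (-1.36), Mrpl43/Twnk (-1.21), Emc8/Cox4i1 (-1.21), Helq/Mrps18c (-1.18), Uqcrh/Lrrc41 (-1.08) and Tatdn1/Ndufb9 (-0.94). Subunits of the same complex thus stood on both sides of 0.

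Proteasome and ubiquitin genes were positive in 4 of 6 members, with a median of 1.01, against 6 of 44 one-direction elements of that list, with a median of -1.53. Psmb9/Tap1 had 1.31, and this pair joins an immunoproteasome subunit with the transporter that carries peptides to MHC class I. Psma7/Ss18l1 had 1.26, AY074887/Psma4 1.17 and Usp5/Cdca3 0.85. C330007P06Rik/Ube2a (-1.69) and Cep76/Psmg2 (-1.41) were negative. The median GC content was 63.5% in these members and 68.4% in the one-direction elements.

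Interferon response genes were positive in all 3 members of their list, and in 25 of 26 one-direction elements. The median GC content was 62.3% in these members and 54.1% in the one-direction elements. Ifit1bl2/Ifit1 had 3.29, Psmb9/Tap1 1.31 and Dtx3l/Parp9 0.77, the last a ubiquitin ligase and its ADP-ribosyltransferase partner. Both histone pairs were positive as well, Hist1h2ac/Hist1h2bc at 0.95 and Hist1h2an/Hist1h2bp at 0.77, as were all 14 one-direction elements at histone genes. The histone elements had a median GC content of 58.2% in members and 55.5% in one-direction elements. Over all one-direction elements, 84.2% were positive from 50 to 55% GC and 52.3% from 55 to 60%. Each histone pair joins an H2A with an H2B gene, and reads of histone genes can be shared with close relatives. Among chaperones, Hspa1a/Hspa1l stood at 3.59 while the mitochondrial chaperonin pair Hspd1/Hspe1 had -1.65 and Dnajb4/Fubp1 -1.25.

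Zinc finger genes were positive in 4 of 15 members (42 of 134 one-direction elements). After the pairs named above came Zfp866/Atp13a1 at 1.69 and Zfp473/Vrk3 at 1.06, and the most negative was Vps9d1/Zfp276 at -2.15. No member of the cell cycle or chromatin lists was positive. The 6 cell cycle members, at 5 pairs, included Alyref/Anapc11 (-1.68) and both elements at Setd3/Ccnk (-1.86 and -1.72). Members were counted by symbol alone, so a gene need not have the function of its list. Cdc42se1 at Mllt11/Cdc42se1, for one, is not a cell cycle gene. The 4 chromatin members, at 3 pairs, were the same Setd3/Ccnk elements, Tpmt/Kdm1b (-1.48), a histone demethylase gene, and Trip13/Brd9 (-0.90). One-direction elements of these lists were positive in 6 of 41 each.

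Replication and repair genes gave 1 positive member of 3, Brix1/Rad1 at 0.96, with Pxmp2/Pole (-1.95), of a replicative polymerase, and Pms1/Ormdl1 (-1.34), of mismatch repair. Membrane traffic gave 1 of 6, Mrpl48/Rab6a, against Vps9d1/Zfp276 as the lowest. General transcription and splicing gave 2 of 4, Gtf2f1/Gm17949 (0.81) and Gtf2e1/Rabl3 (0.77) against Gtf3c4/Ddx31 (-1.34) and Srsf2/Mfsd11 (-1.15). Cytosolic ribosomal protein genes gave 1 of 3, Zwilch/Rpl4 at 1.01, with Rpl7/Rdh10 at -1.09. Both aminoacyl-tRNA synthetase pairs were negative, S100pbp/Yars at -1.35 and Lyrm4/Fars2 at -1.07. The T cell list had 1 member, Bcl6/Gm37419 at 1.04, where Bcl6 encodes a repressor that directs follicular helper T cells, and the B cell and myeloid lists had none. In all, 69 members held a gene of any list and 251 of none.

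Motif content set members apart from one-direction elements in several ways. ETS matches were in 37.8% of members (32.5 to 43.4) and 20.6% of one-direction elements (19.5 to 21.8), at 60.1 and 32.2 matches per 100 kb; the ETS difference thus held per length of sequence as well. Half-open NRF1 matches were in 22.8% (18.3 to 27.8) and 11.5% (10.6 to 12.4), at 35.1 and 17.2 per 100 kb. YY1 matches (AANATGGCG) were in 13.8% (10.2 to 18.02) and 7.82%, NFY in 22.8% and 14.6%, CRE in 7.19% and 3.61%, and E-boxes in 24.4% and 17.9%. Per 100 kb these were 15.1 and 10.8 YY1, 31.9 and 22.7 NFY, 8.21 and 5.09 CRE and 31.9 and 27.9 E-box matches, so the difference for E-boxes was smaller per length than per element. SP and KLF matches (40.9% and 37.7%) and AP-1 matches (8.44% and 8.59%) were held at like shares. AP-1 had 9.20 and 11.9 matches per 100 kb. By sign, AP-1 was in 10.1% of positive (4.18 to 19.8) and 7.97% of negative members. In one-direction elements it was in 17.7% of positive (14.9 to 20.7) and 6.97% of negative ones. ETS and half-open NRF1 matches were held at like shares by both signs: ETS was in 36.2% of positive and 38.2% of negative members, and half-open NRF1 in 23.2% and 22.7%.

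ISRE matches stood out between the signs. They were in 26.1% of positive members (18 of 69, interval 16.3 to 38.1) and 6.37% of negative members (16 of 251, 3.69 to 10.1), at 38.3 and 8.18 matches per 100 kb. Of the 34 members with a match 52.9% were positive, and of the 286 without 17.8%. One-direction elements gave 47.0% (142 of 302) and 13.0%. Members with a match had a lower median GC content, 61.5% against 66.1%. From 55 to 60% GC, 6 of 6 members with a match and 18 of 28 without were positive. From 60 to 65% it was 5 of 13 and 18 of 79, and from 65 to 70% 1 of 7 and 4 of 110. One-direction elements differed little from 55 to 60% GC, with 57.1% (24 of 42) positive with a match and 51.6% (160 of 310) without. For them it was 33.8% and 16.1% from 60 to 65%, and 6.25% and 3.47% from 65 to 70%. Besides immune genes, positive members with a match included Ppp1r15a/Plekha4 and Mitd1/Mrpl30, with 3 matches. Drap1/AI837181 was the most negative member with one.

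CRE and YY1 matches were also more frequent in positive members, with intervals that overlapped, and SP and KLF matches in negative members. CRE was in 14.5% of positive and 5.18% of negative members, and 10 of the 23 members with a match were positive (43.5%), among them Rbks/Babam2, Ppp1r15a/Plekha4 and Zfp473/Vrk3. From 55 to 60% GC, 6 of 6 members with a CRE and 18 of 28 without were positive, from 60 to 65% 4 of 8 and 19 of 84, and from 65 to 70% 0 of 6 and 5 of 111. YY1 was in 21.7% of positive and 11.6% of negative members, and 15 of 44 with a match were positive (34.1%). NFY was in 30.4% and 20.7%. SP and KLF matches were in 23.2% of positive (13.9 to 34.9) and 45.8% of negative members (39.5 to 52.2), and 12.2% of members with a match were positive; 53 of 189 were positive without. From 60 to 65% GC that contrast was not seen in members, with 9 of 37 positive with a match and 14 of 55 without. In members it was 5 of 6 and 19 of 28 from 55 to 60%, and 1 of 54 and 4 of 63 from 65 to 70%. One-direction elements were positive in 41.7% with a match and 55.6% without from 55 to 60% GC. For them it was 14.2% and 19.3% from 60 to 65%, and 2.89% and 4.14% from 65 to 70%. The SP and KLF letters rise with GC content, and the part of the motifs in the sign was not tested.

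**Figure D5:**
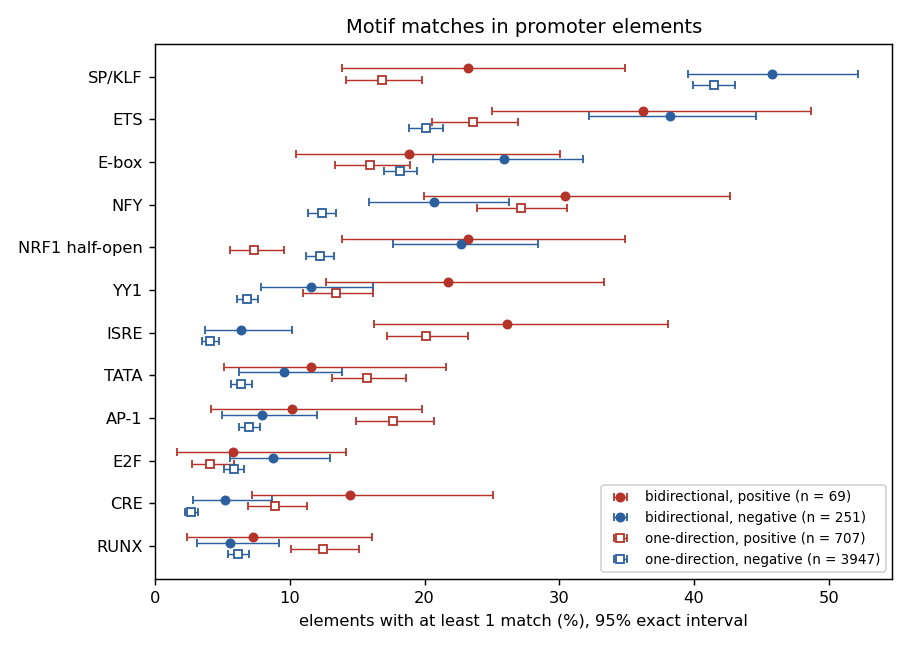
Share of elements with at least 1 match (horizontal axis, percent, with exact 95% intervals) for 12 motifs (vertical axis), in positive and negative bidirectional elements (filled circles) and positive and negative one-direction elements (open squares). ETS and half-open NRF1 matches are more frequent in bidirectional elements of both signs, while ISRE matches follow the positive sign and SP/KLF matches the negative sign in both kinds.

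Heat shock units were searched after the data were seen. The paired unit was in 37.7% of positive and 23.1% of negative members (intervals 26.3 to 50.2 and 18.04 to 28.8), and Hspa1a/Hspa1l held 2 matches. One-direction elements had the same order, with 28.0% of positive and 18.8% of negative elements. Members with a match had a median GC content of 64.4%, against 66.0% without. The tripled unit was in 5 members, 2 positive (Hist1h2ac/Hist1h2bc and Hnrnpa2b1/Cbx3) and 3 negative, among them Timm9/2700049A03Rik and Hspd1/Hspe1. No match to an exact unit says only that those letters are not there.

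Matches were not spread evenly along divergent members, where 17.6% of the sequence lay between the TSSs. That interval held 53.7% of the 82 NFY matches, 50.5% of 192 SP and KLF matches, 47.6% of 21 CRE matches and 45.9% of 85 half-open NRF1 matches. It held 37.7% of 69 E-boxes and 28.1% of 139 ETS matches. By contrast, 12.1% of 33 YY1 matches and 21.6% of 37 ISRE matches lay there, the latter a median of 167 bp from the nearer TSS. In Ifit1bl2/Ifit1 both ISRE matches were nevertheless between the start sites, as printed above.

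Promoter windows set at RefSeq starts held most of these motifs more often in member genes than in all protein-coding genes. The member genes come from the listed elements, most of which cover both TSSs. The windows thus largely re-read the same sequence and are not independent support. The comparator also differs: SP and KLF shares, alike in listed members and one-direction elements, differed here. RefSeq windows of 300 bases (250 before to 50 after the start, GRCm38) were found for 492 of the 622 member genes (638 windows) and for 16522 of 21911 protein-coding genes (20150 windows). The windows of a pair overlap, so they are not independent. ETS was in 22.7% of member windows (19.5 to 26.2) and 11.9% of all, half-open NRF1 in 14.4% and 6.60%, SP and KLF in 26.0% and 15.8%, YY1 in 5.96% and 3.27%, E-boxes in 13.3% and 8.03% and CRE in 4.39% and 2.31%. NFY was close, at 13.9% and 12.5%. The letters TATAAA were in 4.86% of member windows (3.32 to 6.83) and 12.1% of all. In the listed elements they were in 10.0% of members (6.94 to 13.8) and 7.80% of one-direction elements (7.05 to 8.61), with overlapping intervals. Over all listed elements on placed chromosomes the share was 13.3%, so the order depended on the comparator.

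Several pairs carried more than 1 listed element. There were 11 such pairs with 23 elements, and the sign was the same within 9 of them. At Nrg4/Tmem266, an 800 bp element of 57.1% GC had 2.46 and a 275 bp element of 73.8% GC had -1.70. At Nat9/Tmem104, a 450 bp element of 67.3% GC had -0.76 and a 50 bp element of lower GC content had 0.68. In both pairs the positive element was the one with the lower GC content. Pcid2/Cul4a, with the gene of a cullin ubiquitin ligase scaffold, had 3 elements at -1.58, -1.54 and -0.80. Acvr1/Upp2, at a BMP receptor gene, had -1.53 and -2.45, and Ahctf1/Gm10518, at a nucleoporin gene, -1.22 and -1.84. The 2 positive pairs were Dhx38/Txnl4b (1.02 and 0.66), of splicing factors, and Mkks/Slx4ip (1.04 and 0.87).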

How the data were processed

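The list of STARR-seq elements was analysed as deposited, for both replicates together; per the file headers it derives from the alignments of both, on assembly mm10. Aligner and element caller are not given in the sources used here, and the input control is not analysed here. The deposited effect was taken as a log2 value. The authors' p-values are on the linear scale, and their adjusted p-values matched Benjamini-Hochberg values over 114722 implied tests within 0.1% in all 10531 elements. The authors' last column, the other value per element, equalled its width. Starts were counted from 1.

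TSSs were those of GENCODE M21 basic transcripts, sequence was read from the GRCm38 genome, and 10 elements on unplaced scaffolds were left out. The 17 motif searches used exact letters on both strands, and overlapping matches of different motifs were each counted. A copy was a minimap2 2.31-r1302 match of at least 95% identity over at least 90% of the element. Counting was done in Python 3.11.15 with pandas 2.3.3 and SciPy 1.17.1 and tested on simulated elements. No test of groups was run, since there is 1 group and 1 value per element. The p-values printed are those of the authors.

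Members, lists and motifs were chosen with earlier results of these data known. Genes were named as the 10 largest and 10 most negative effects, the 5 smallest p each way, the largest effect each way per gene list (by symbol), and pairs with several elements; others were named after their values were seen. Alternatives varied the window, transcripts, adjusted p, copies, width, geometry, GC bins and searched sequence. Values of 2 members that these rules or lists cover are not reported here.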

Additional observations from a re-analysis of the deposited data

How the results depend on the processing

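The share of positive bidirectional elements lay between 20.2% and 21.9% under 10 alternatives (both windows, elements covering both TSSs, a stricter adjusted p, other transcript sets, no copies, at least 200 bp, divergent pairs, 1 element per pair), and the medians of positive and negative effects kept within the intervals given under 9 of them. Keeping elements with an adjusted p of at most 0.001 left 194 members, 40 of them positive, and moved the medians to 1.24 and -1.49, as fewer small effects pass. The excess over one-direction elements at like GC content ranged from 2.51 to 5.06 percentage points over 3 alternatives. The alternatives without provisional gene models (59 of 268 positive) and with GC bins of 2 points (4.77) were chosen after seeing the data. No paired analysis was possible because the list holds 1 group and no values per replicate, and leaving out a replicate was not run for the same reason. Depth is unknown, so precision between replicates could not be given.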
